A study of Bos taurus with 11 samples.

Results

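The effect of a low supply of histidine on differentiated bovine mammary epithelial cells (BMEC) was examined across the genes that were read deeply enough for each library to be compared. Of 27607 genes in the table of counts, 12764 averaged 200 or more raw counts over the 2 control (CTL) and 3 low histidine (LH) libraries, and these genes are described here. Genes on either side of this limit averaged 199.4 and 200.0 counts. The limit was set so that a count of 0 in a control library would not decide a result. Among the 12764 genes, 26 had a count of 0 in at least 1 of the 5 libraries, 20 of them in CTL replicate 1 and 6 in CTL replicate 2, and 0 genes were at 0 in all libraries of a group. Of the genes called below as changed by at least 2-fold, 1 had a count of 0 in a control library.

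The BMEC were primary epithelial cells from the mammary tissue of lactating Holstein cows, which were passaged, grown to confluence and differentiated with insulin, prolactin and hydrocortisone. They were then kept for 60 h in a medium that held 40 µM histidine in CTL and 10 µM histidine in LH. Lysine at 80 µM, methionine at 20 µM and the other amino acids were the same in both media, as were the lactogenic hormones. Low lysine (LK, 20 µM lysine) and low methionine (LM, 5 µM methionine) media were set up in the same way, with 40 µM histidine in each. The number of cows behind the cultures is not given in the sources used here, so the p-values measure the spread between these libraries, which may be in part technical. The files do not pair the Ensembl identifiers with gene names, and the labelled cell type was therefore not checked against its markers.

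Histidine is an essential amino acid, which mammary cells take up from blood and use for milk protein and for their own proteins. When an essential amino acid runs short, uncharged tRNA activates the kinase GCN2, which phosphorylates eIF2α, slows translation and favours the synthesis of the transcription factor ATF4. ATF4 raises the transcription of amino acid transporters, synthetic enzymes and aminoacyl-tRNA synthetases. Amino acids also act through mTORC1, which promotes protein synthesis and cell growth when they are plentiful. The comparison of LH with CTL asks how far transcript levels have moved after the deficiency has lasted for 60 h.

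Totals counted on genes ranged from 199231024 to 278354731 over the 5 libraries, and the 12764 genes held 99.9% of the counts in each of them. The 10 most abundant genes held 10.7% to 11.9% of the counts of a library and the 100 most abundant held 27.7% to 29.5%, with overlapping values in CTL and LH. The CTL libraries stood apart from each other by some measures and not by others. The median absolute log2 difference of a gene was 0.19 between them, against 0.13 to 0.19 between LH libraries. The median SD on the log2 scale was 0.45 in CTL and 0.35 in LH for genes of 200 to under 1000 counts. It was 0.10 and 0.11 at 5000 to under 20000 counts, and 0.06 and 0.08 at 20000 counts or more. In principal component analysis of log2 normalised read counts, the first component held 49.4% of the variance and set CTL replicate 1, at -52.6, apart from CTL replicate 2, at 4.65, and from the LH libraries, at 15.7 to 16.5. The second component held 27.6% and set CTL replicate 2, at -39.6, apart from CTL replicate 1, at 6.57, and from the LH libraries, at 8.58 to 13.3. At least a 2-fold difference was found for 771 genes between the CTL libraries, and for 237 to 391 genes between pairs of LH libraries. Pearson's r across genes was 0.961 between the CTL libraries and 0.985 to 0.990 between LH libraries, and genes are not independent replicates. Even numbers made up 78.9% and 76.6% of the values from 200 to under 400 in CTL replicates 1 and 2, and 65.7%, 62.9% and 66.9% in LH replicates 1, 2 and 3. The groups did not overlap in this share, and its part in the results was not tested. The numbers of DEG are also given without each CTL library.

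Most of the transcriptome moved little in LH. The median absolute log2 fold change of the 12764 genes was 0.16 and the median standard error was 0.14. For 10532 genes (82.5%) the 95% interval of the fold change lay within 2-fold in either direction, and for 8140 genes (63.8%) it lay within 1.5-fold. These intervals were computed gene by gene and were not adjusted for the number of genes. For 2067 genes (16.2%) the interval reached past 2-fold without a call, so that a 2-fold change was not excluded for them, and 1697 of these genes averaged under 1000 counts.

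Differentially expressed genes (DEG), with a false discovery rate (FDR) under 0.05 and a change of at least 2-fold, numbered 165 of the 12764 genes, or 1.29%. Over all 18345 genes tested the share was 1.17%. Higher levels in LH were found for 87 DEG and lower levels for 78, which is 0.682% and 0.611% of the genes described, against 0.725% and 0.442% of all genes tested. Without CTL replicate 2 there were 325 DEG, 215 higher and 110 lower, and 125 of the 165 were among them. Without CTL replicate 1 there were 176, 104 higher and 72 lower, with 105 of the 165 among them. With all 11 libraries there were 95, 50 higher and 45 lower. This setting adds LM replicate 2, which the paper excluded because it failed quality checks. That library is in neither group compared here, and enters through the scaling and the shared estimate of spread. Lower DEG were the majority when the model was fitted to the CTL and LH libraries alone, with 59 of 130 higher, with only described genes in the fit (73 of 152), at 500 or more counts (71 of 147) and without LH replicate 1 (85 of 173). Among the 5581 genes tested that averaged under 200 counts, 46 were higher and 3 were lower. The median change was 2.55-fold for the higher DEG and 2.34-fold for the lower DEG. A change of over 4-fold was fitted for 17 of the higher DEG and for 2 of the lower DEG. Of the 17, 12 averaged under 200 raw counts in CTL and reached the limit of 200 only through LH, and 1 of the 2 reached it only through CTL. Over all DEG this held for 16 of the 87 higher and 1 of the 78 lower genes.

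**Figure D1:**
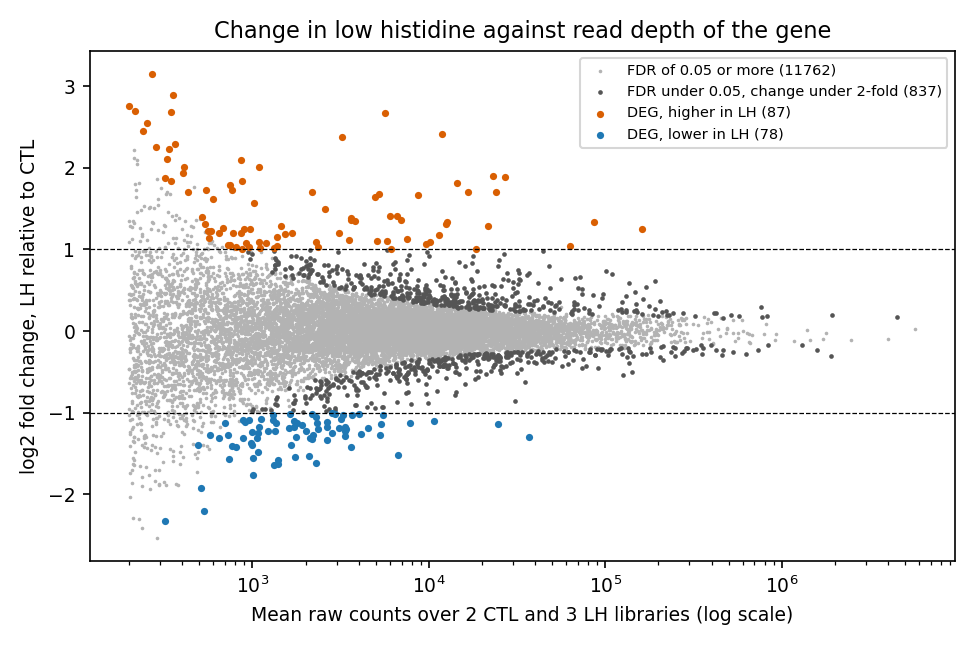
Log2 fold change of LH relative to CTL (vertical axis) against the mean raw count over the 2 CTL and 3 LH libraries (horizontal axis, log scale) for 12764 genes. Orange and blue points are the 87 DEG that were higher and the 78 that were lower, dark grey points are genes with an FDR under 0.05 and a smaller change, and dashed lines mark a 2-fold change; the scatter narrows as the count rises.

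The higher and lower DEG were found in each LH library. The median higher DEG lay above the CTL mean by 1.41, 1.33 and 1.53 on the log2 scale in LH replicates 1, 2 and 3. The median lower DEG lay at -1.13, -1.21 and -1.32 relative to the CTL mean in the same libraries. All 165 DEG lay on the called side of the CTL mean in each LH library, and in all of them the values of the 3 LH libraries did not overlap those of the 2 CTL libraries. These DEG were chosen for that difference. Over the 12764 genes, LH libraries lay wholly above CTL for 2137 genes (16.7%) and wholly below for 2114 (16.6%), against 14.7% and 13.1% of all genes tested.

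As a share of all counts, the 87 higher DEG were small. They held 0.143% and 0.142% of the counts in CTL replicates 1 and 2, and 0.378%, 0.338% and 0.384% in LH replicates 1, 2 and 3. The 78 lower DEG held 0.155% and 0.142% in the CTL libraries and 0.0675%, 0.0650% and 0.0578% in the LH libraries. The 100 most abundant genes of the 5 libraries had log2 fold changes between -0.31 and 0.29 only. Of these 100 genes, 12 rose and 22 fell at an FDR under 0.05 in edgeR's quasi-likelihood test, and 66 did not pass. The share that passed is to be read against 5.73% of all genes tested and 14.2% of the genes of 20000 counts or more.

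Many more genes passed the FDR alone, by changes of less than 2-fold. At an FDR under 0.05, 1002 genes (7.85%) passed, against 5.73% of all genes tested. Of these, 537 were higher in LH (4.21% of the genes described, against 3.18% of all genes tested) and 465 were lower (3.64%, against 2.55%). The median change was 1.42-fold for the higher genes and 1.40-fold for the lower genes. Changes under 1.5-fold accounted for 315 of the higher and 288 of the lower genes, and changes of 1.5-fold to 2-fold for 135 and 99. The number was 266 (166 higher and 100 lower) when all 11 libraries were fitted, and 468 when the model was fitted to the CTL and LH libraries alone. Without CTL replicate 1, 391 genes were higher and 278 lower, and without LH replicate 3 the numbers were 373 and 305.

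The DEG were then counted by class of mean raw count. The limit of 200 counts and the classes use the mean over CTL and LH together, so the change in LH bears on which class a gene falls in, and the counts by class are a description. In the class averaging 200 to under 1000 counts, 39 of 2190 genes were higher and 18 lower. In the class of 1000 to under 5000 counts the direction was the opposite, with 22 of 3878 genes higher and 52 lower. In the class of 5000 to under 20000 counts, 19 of 4460 genes were higher and 6 lower, and in that of 20000 counts or more 7 of 2236 were higher and 2 lower. The 2 became 1 with DESeq2. They became 0 in edgeR with a robust prior, which lets a gene of unusual spread keep more of its own spread. No test of the difference between classes was made.

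**Figure D2:**
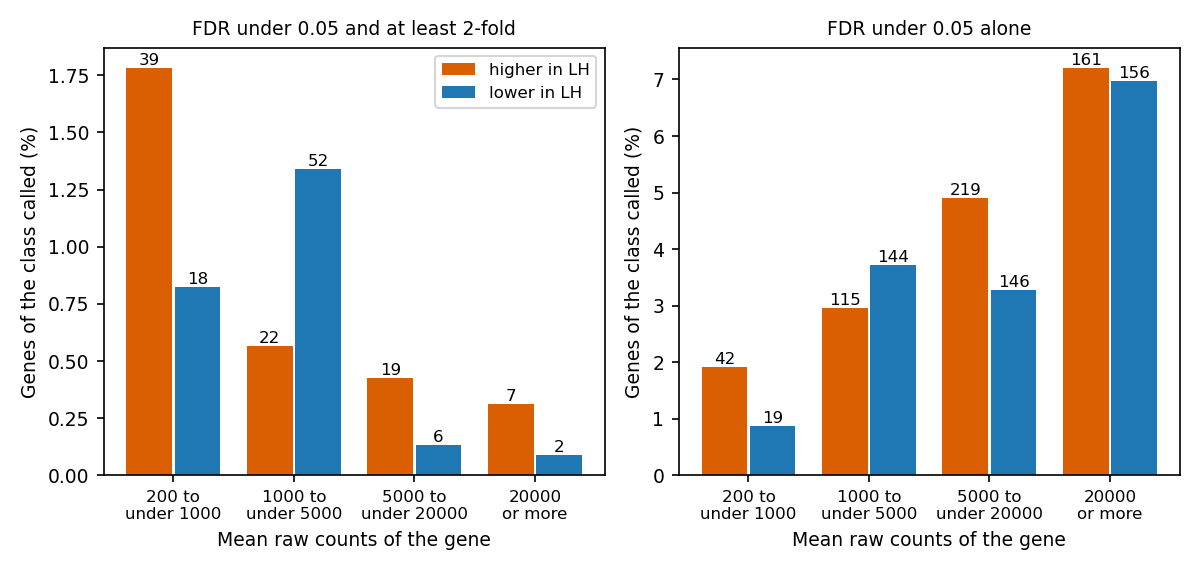
Percentage of the genes of each class of mean raw count (horizontal axis) that were called higher (orange) or lower (blue) in LH relative to CTL, with the number of genes above each bar. Lower DEG outnumbered higher DEG in the class of 1000 to under 5000 counts alone, 52 against 22 (left), and the share passing the FDR alone was largest in the deepest class (right).

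The lower DEG of 1000 to under 5000 counts formed the largest of these groups. Their median was 3286 normalised read counts in CTL and 1332 in LH, and their log2 fold changes reached -1.77 with a median of -1.20. The CTL libraries differed by at least 2-fold for 1 of the 52 genes, and the range over the LH libraries reached 2-fold for 2 of them. The excess of lower over higher genes in this class was kept in edgeR with the CTL and LH libraries alone (51 against 21), with all 11 libraries (36 against 17) and without CTL replicate 1 (52 against 34). Without CTL replicate 2 the numbers were nearly equal, with 64 lower and 63 higher.

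The higher DEG of 200 to under 1000 counts had a median of 289 normalised read counts in CTL and 754 in LH, and 16 of these 39 genes averaged under 200 raw counts in CTL. The CTL libraries differed by at least 2-fold for 14 of the 39, and the range over the LH libraries reached 2-fold for 6. Of the 17 higher DEG changed over 4-fold, 13 were in this class and 8 had CTL libraries that differed by at least 2-fold. The means of the 17 genes ran from 45.8 to 3362 normalised read counts in CTL and from 311 to 17977 in LH. The class held 11 higher and 12 lower DEG with the CTL and LH libraries alone, and 7 and 1 with all 11 libraries, which adds LM replicate 2. It held 43 and 28 with DESeq2, and 25 and 19 with only described genes in the fit. Without CTL replicate 2 it held 121 and 39. The numbers were 45 and 13 without CTL replicate 1, and 25 and 12 without LH replicate 3. A change larger than 2-fold over the whole 95% interval was found for 39 genes that were higher, 14 of them in this class, and for 8 that were lower, 6 of them in the class of 1000 to under 5000 counts.

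Among the higher DEG averaging 5000 counts or more, replicates were closer. The CTL libraries differed by at least 2-fold for 1 of these 26 genes, and the range over LH libraries reached 2-fold for 0 of them. The 19 genes of 5000 to under 20000 counts had a median log2 fold change of 1.34 and a median standard error of 0.11, and the 7 genes of 20000 counts or more had a median of 1.33 and a standard error of 0.09.

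Individual genes are given by identifier only, as the 2 higher and the 2 lower DEG that had the smallest p-values. ENSBTAG00000007881 had 3423 and 3301 normalised read counts in CTL replicates 1 and 2, and 16194, 16714 and 21023 in LH replicates 1, 2 and 3. Even the lowest LH library exceeded both controls several times over. The log2 fold change was 2.42 with a standard error of 0.11 (edgeR adjusted p = 4.54e-27), from 3362 ± 86.5 in CTL (SD, n = 2) to 17977 ± 2651 in LH (SD, n = 3). The edgeR adjusted p was 2.22e-10 with the CTL and LH libraries alone and 1.09e-08 with all 11 libraries. In the other deficiencies the gene had 44356 to 50480 normalised read counts in the 3 LK libraries and 14466 and 11010 in LM replicates 1 and 3. LH lay below LK by a log2 difference of -1.42 (edgeR adjusted p = 5.01e-20) and above LM by 0.50 (edgeR adjusted p = 0.000604).

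ENSBTAG00000004679 was the more abundant of the 2 risen genes. It had 92679 and 89446 normalised read counts in the CTL libraries and 224855, 198088 and 225003 in the LH libraries, without overlap between groups. The log2 fold change was 1.25 with a standard error of 0.06 (edgeR adjusted p = 7.71e-24), from 91063 ± 2286 (SD, n = 2) to 215982 ± 15497 (SD, n = 3). The edgeR adjusted p was 5.88e-10 with the CTL and LH libraries alone and 2.80e-08 with all 11 libraries. The LK libraries had 256231 to 290364 normalised read counts, and LM replicates 1 and 3 had 192323 and 184214. LH was lower than LK by a log2 difference of -0.35 (edgeR adjusted p = 2.95e-06), and its difference of 0.20 from LM did not pass (standard error 0.06, edgeR adjusted p = 0.0687).

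ENSBTAG00000008216 fell in LH. It had 17633 and 14821 normalised read counts in the CTL libraries and 7726, 7814 and 7194 in the LH libraries, so that the groups did not overlap. The log2 fold change was -1.10 with a standard error of 0.12 (edgeR adjusted p = 5.60e-11), from 16227 ± 1988 (SD, n = 2) to 7578 ± 335 (SD, n = 3). Without CTL replicate 1 it was -0.97, short of 2-fold. For this gene the edgeR adjusted p was 2.65e-06 with the CTL and LH libraries alone and 3.92e-05 with all 11 libraries. Its levels were 4089 to 4947 in LK, below LH by the direct test (log2 difference of LH from LK 0.78, edgeR adjusted p = 8.60e-08), and 8914 and 10380 in LM, where the difference of -0.35 did not pass (standard error 0.12, edgeR adjusted p = 0.107).

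ENSBTAG00000002444 fell further, from 10156 and 12174 normalised read counts in the CTL libraries to 3515, 4501 and 3703 in the LH libraries. The highest LH library had fewer than the lower CTL library. The log2 fold change was -1.51 with a standard error of 0.16 (edgeR adjusted p = 7.06e-11), from 11165 ± 1427 (SD, n = 2) to 3906 ± 523 (SD, n = 3). The edgeR adjusted p was 6.40e-07 with the CTL and LH libraries alone and 0.00747 with all 11 libraries. The gene had 1641 to 2584 normalised read counts in LK, fewer than in LH (log2 difference 0.86, edgeR adjusted p = 1.67e-05), and 3671 and 5750 in LM, which LH did not differ from at the threshold (log2 difference -0.27, standard error 0.16, edgeR adjusted p = 0.528).

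**Figure D3:**
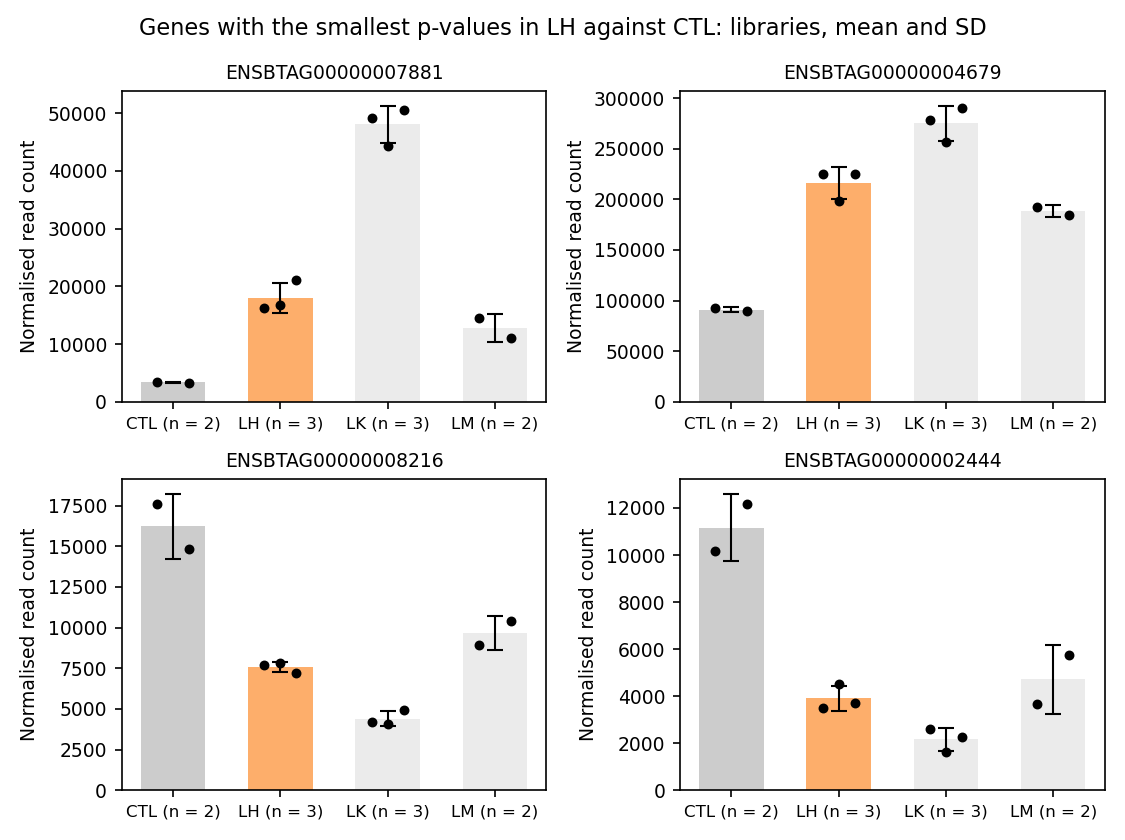
Normalised read counts (vertical axes, from 0) of the 2 genes that rose and the 2 that fell with the smallest p-values in LH relative to CTL. Points are libraries, bars are group means and error bars are SD, for CTL (n = 2), LH (n = 3), LK (n = 3) and LM (n = 2); LH lies between CTL and LK in each panel.

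To see whether the changes differed between deficiencies, the 165 DEG of LH were compared directly with LK and LM, without the CTL libraries in the contrast. For the 87 higher DEG the median log2 difference of LH from LK was -0.39 (quartiles -0.79 and -0.02). Of these, 38 differed at an FDR under 0.05, 36 with LH below LK and 2 with LH above LK. For the 78 lower DEG the median difference of LH from LK was 0.70 (quartiles 0.26 and 0.94). Of these, 46 differed at an FDR under 0.05, 42 with LH above LK and 4 with LH below LK. Together 84 of the 165 DEG differed from LK at an FDR under 0.05, against 7.21% of all genes tested, and 26 also by at least 2-fold, against 0.496%. With all 11 libraries these numbers were 44 and 17. In edgeR with the robust prior they were 75 and 24. The median log2 fold changes relative to CTL, which the comparisons share, were 1.35 in LH and 1.91 in LK for the higher DEG, and -1.23 and -1.96 for the lower DEG.

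The same DEG were compared with LM, which has 2 libraries in the fit where LK has 3, and the numbers for LK and LM were not tested against each other. Of the 87 higher DEG, 25 differed from LM at an FDR under 0.05, 22 of them with LH above LM, and the median log2 difference was 0.32 (quartiles -0.05 and 0.65). Of the 78 lower DEG 3 differed, each with LH below LM, and the median difference was -0.26 (quartiles -0.43 and 0.00). The 28 genes compare with 2.44% of all genes tested, and 5 also differed by at least 2-fold, against 0.164%. With all 11 libraries the 28 became 15, with the robust prior 18 and 3 differed, and without LH replicate 2 the 5 became 10. The DEG were chosen by their values in LH, which by itself favours larger changes in LH than in LK or LM. The direction towards LK was thus opposite to that of the choice, and the direction towards LM was the same.

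**Figure D4:**
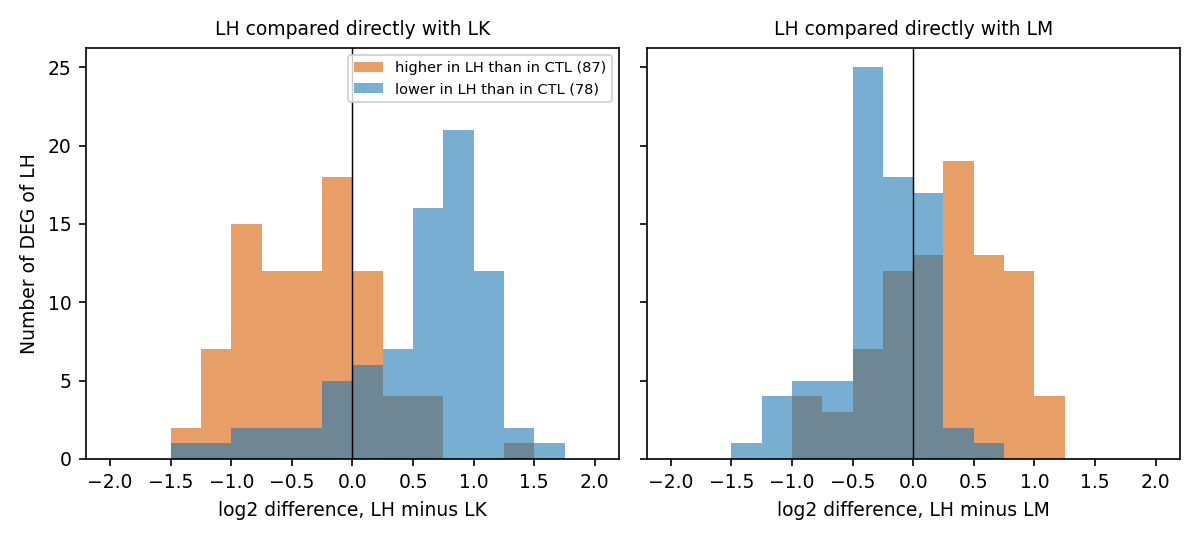
Number of DEG of LH (vertical axis) by log2 difference between LH and LK (left) or LH and LM (right), for the 87 DEG that were higher in LH than in CTL (orange) and the 78 that were lower (blue). The medians are -0.39 and 0.70 relative to LK, and 0.32 and -0.26 relative to LM.

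Genes that differed in LH from each of the other 3 media were also counted. At an FDR under 0.05 in all 3 tests, 19 genes (0.149% of the genes described, against 0.104% of all genes tested) were highest in LH and 12 (0.0940%, against 0.0654%) were lowest. The 19 highest genes were above CTL by log2 fold changes of 0.18 to 0.71 with a median of 0.37, all short of 2-fold, and they averaged a median of 64545 counts. The 12 lowest genes were below CTL by a median of -0.45, and 2 of them were DEG. These 2 were the lower DEG of 20000 counts or more, a class that held 1 with DESeq2 and 0 with the robust prior. These numbers depended on the libraries and the settings of the fit, with 54 highest genes without LH replicate 2, 30 lowest genes without LH replicate 1, and 6 in each direction when each pair of groups was fitted alone. The fits without LH replicate 1 or 2 also took more of the spread of each gene from other genes. With all 11 libraries in edgeR, 0 were highest and 1 was lowest, and at an unadjusted p under 0.05 in all 3 tests the numbers were 21 and 34. DESeq2 with the 10 libraries gave 21 and 11. A single gene, singled out after its values were seen, was lower in LH by at least 2-fold in all 3 tests. It had 40096 and 35149 normalised read counts in CTL and 18570, 16230 and 16284 in LH, against 27401, 57007 and 24940 in LK and 26205 and 54109 in LM replicates 1 and 3. LK replicate 2 and LM replicate 3 stood apart from the other libraries of their groups. Its log2 difference of LH from LK was -1.10, and -0.61 without LK replicate 2, and that from LM was -1.24, and -0.62 without LM replicate 3. With the robust prior, the differences from LK and LM did not pass (edgeR adjusted p = 0.229 and 0.311), nor did they with DESeq2 (adjusted p = 0.0663 and 0.116). The call of this gene against CTL was also lost with the robust prior.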

How the data were processed

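Libraries of polyadenylated RNA were sequenced as paired-end reads. The authors used fastp to clean the reads, STAR to align them to ARS-UCD1.2 and featureCounts to count them per Ensembl gene. The deposited values are raw counts for 27607 genes in 11 libraries, and 0 columns were left unused. The options of featureCounts are not stated. The paper lists fewer read pairs than the total counted on genes for each CTL and LH library. A pair can thus have added more than 1 to the counts, and the number of fragments behind a count is not known. No molecular identifiers were read, so several reads may also come from 1 molecule. Low counts may therefore look more precise than they are, which was not tested.

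Counts of 10 libraries (LM replicate 2 was left out, as in the paper) were fitted with edgeR 4.0.16 in R 4.3.3 by quasi-likelihood, with TMM scaling and 4 groups as the only terms. Genes had to exceed 10 reads in all, and p-values were adjusted by Benjamini-Hochberg over 18345 genes. The prior degrees of freedom for the spread were 53.8 in this fit and 13.1 with all 11 libraries. They were 638 without LH replicate 1 and 1119 without LH replicate 2. A gene whose replicates disagreed thus took most of its spread from other genes, and nearly all of it in the last 2 fits. A robust prior was therefore added after seeing the data. Standard errors were taken from the F statistic. Normalised read counts are TMM-scaled counts at the mean library total. Alternatives included DESeq2 1.42.0, and both tools were tested on simulated counts. The genes described, thresholds, classes and lists were chosen with earlier results of these data known. Named genes were to be DEG ranked by p-value and members of gene lists. The reference table of 37063 RefSeq genes holds 0 Ensembl identifiers, which left every gene without a name. Only 2 genes in each direction are given, therefore, and gene lists, cell type markers, sequences and promoter motifs were not used here. Figures were drawn with matplotlib 3.10.9.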

Additional observations from a re-analysis of the deposited data

How the results depend on the processing

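The 165 DEG became 178 with DESeq2, of which 157 were shared, 164 with the replicate number as a block (147 shared) and 130 with only the CTL and LH libraries (128 shared). Deviations of same-numbered CTL and LH libraries from their group means correlated at 0.01 and 0.03 across genes. With 2 CTL libraries these deviations mirror each other, so the values cannot tell whether same-numbered libraries share a batch. With all 11 libraries there were 95 DEG (50 higher, 45 lower), 266 genes past the FDR alone (166 and 100), and 44 and 15 DEG that differed from LK and LM by FDR alone, 17 from LK also by fold. With glmTreat at 1.2-fold, 263 genes were called, 159 higher, and 16 of them differed from LM. In the fit of the CTL and LH libraries alone, 253 genes were higher and 215 lower by FDR alone, 468 in all. With a robust prior, chosen after seeing the data, 159 DEG were called (158 shared), 18 differed from LM by FDR alone and 3 also by fold. Genes highest and lowest in LH against all 3 other media, 19 and 12, became 13 and 19 with library size only, 11 and 6 with filterByExpr, 11 and 10 with only described genes in the fit, 6 and 6 with each pair of groups alone, and 0 and 1 with all 11 libraries. The causes were not tested.

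Leaving out single libraries, where a single remaining CTL library takes its spread from the other groups, gave 136 to 325 DEG, 70 to 215 higher and 66 to 110 lower. Without CTL replicate 2 there were 325 (125 shared) and without CTL replicate 1 there were 176 (105 shared). In all 5 such fits 69 of the 165 were called, 37 higher and 32 lower. By FDR alone the ranges were 669 to 1171, 373 to 612 higher and 278 to 565 lower. DEG differing from LK numbered 66 to 101 by FDR alone and 21 to 30 also by fold, and from LM 23 to 35 and 4 to 10, the last without LH replicate 2. The share of higher genes among DEG was 52.7%, 60.5% with glmTreat, and 59.1% and 66.2% without CTL replicates 1 and 2. Genes highest and lowest in LH against all 3 other media numbered 13 to 54 and 8 to 30. Lower DEG were the majority with only the CTL and LH libraries (45.4% higher), with only described genes in the fit (48.0%), at 500 or more counts (48.3%) and without LH replicate 1 (49.1%). Tests of gene lists and promoter motifs were not run.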
